A study of Mus musculus with 24 samples.

Results

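The *Hox* genes encode homeodomain transcription factors that give the body axis its positional identity, and 38 of them, listed by symbol from the 4 mouse clusters, were followed here among 54446 genes counted in *Tfap2b* mutant embryos at E14.5. All 38 were found in the count files. They were listed as a gene family, by symbol. The Hoxa cluster contributed 10 members on chromosome 6, the Hoxb cluster 10 on chromosome 11, the Hoxc cluster 9 on chromosome 15 and the Hoxd cluster 9 on chromosome 2.

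Genes of a cluster stand in the order of their paralog groups, numbered from 1 at the 3′ end to 13 at the 5′ end, and members of a group in different clusters descend from a common ancestral gene. Low-numbered groups begin further rostrally in the neural tube than high-numbered groups, an order known as colinearity. In the brain the *Hox* genes are active in the hindbrain behind its most rostral segment and in the spinal cord, while midbrain and forebrain lack them, so the highest-numbered *Hox* gene detected in a brain piece serves as a mark of how far caudally its tissue reached.

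RNA was sequenced from the secondary prosencephalon (SP, the telencephalon with the hypothalamus) and from the remaining diencephalon, midbrain and hindbrain (DMH) of 12 embryos, 3 for each sex and genotype, which gave 24 libraries. *Tfap2b* encodes the transcription factor AP-2β. Mutants were homozygous for a *Tfap2b* allele disrupted by a PGK-neo cassette in exon 4 (*Tfap2b*-/-), and controls were wild-type littermates (*Tfap2b*+/+) from crosses between heterozygous carriers. Each library came from the piece of a single embryo, and the mutation was constitutive, present in all cells and at all stages. Female mut3, the third female mutant, was left out of the fits in the same way as in the study, and its values are given beside them. In the text, levels are in CPM, counts on genes scaled to a common library size with TMM factors, the floor of a library is 3 counts, and a gene was called at an FDR under 0.2 with an absolute log2 fold change over 0.5.

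Libraries held 24717386 to 66844175 counts on genes, which placed the floor between 0.0455 and 0.123 CPM. *Tfap2b* stood at 281 to 435 CPM in the 6 DMH controls and at 50.4 to 56.6 CPM in the 6 DMH mutants. 1 embryo went against its sex label: both libraries of female control 2 held Y-linked transcripts, 122 and 133 CPM over 4 genes against at most 0.0351 CPM in every other female library, with *Xist* at 0.0907 and 0.0341 CPM. Female mut3 stood apart by markers of other tissues in DMH, with skeletal muscle genes at 629 CPM in sum against 5.75 to 8.30 CPM in the other 11 DMH libraries and cartilage genes at 1885 against 65.4 to 90.4 CPM. Genes of the telencephalon (*Neurod6* and 4 others) summed to 70.6 to 116 CPM in DMH and to 1048 to 1918 CPM in SP, on the side of the labels.

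**Figure D1:**
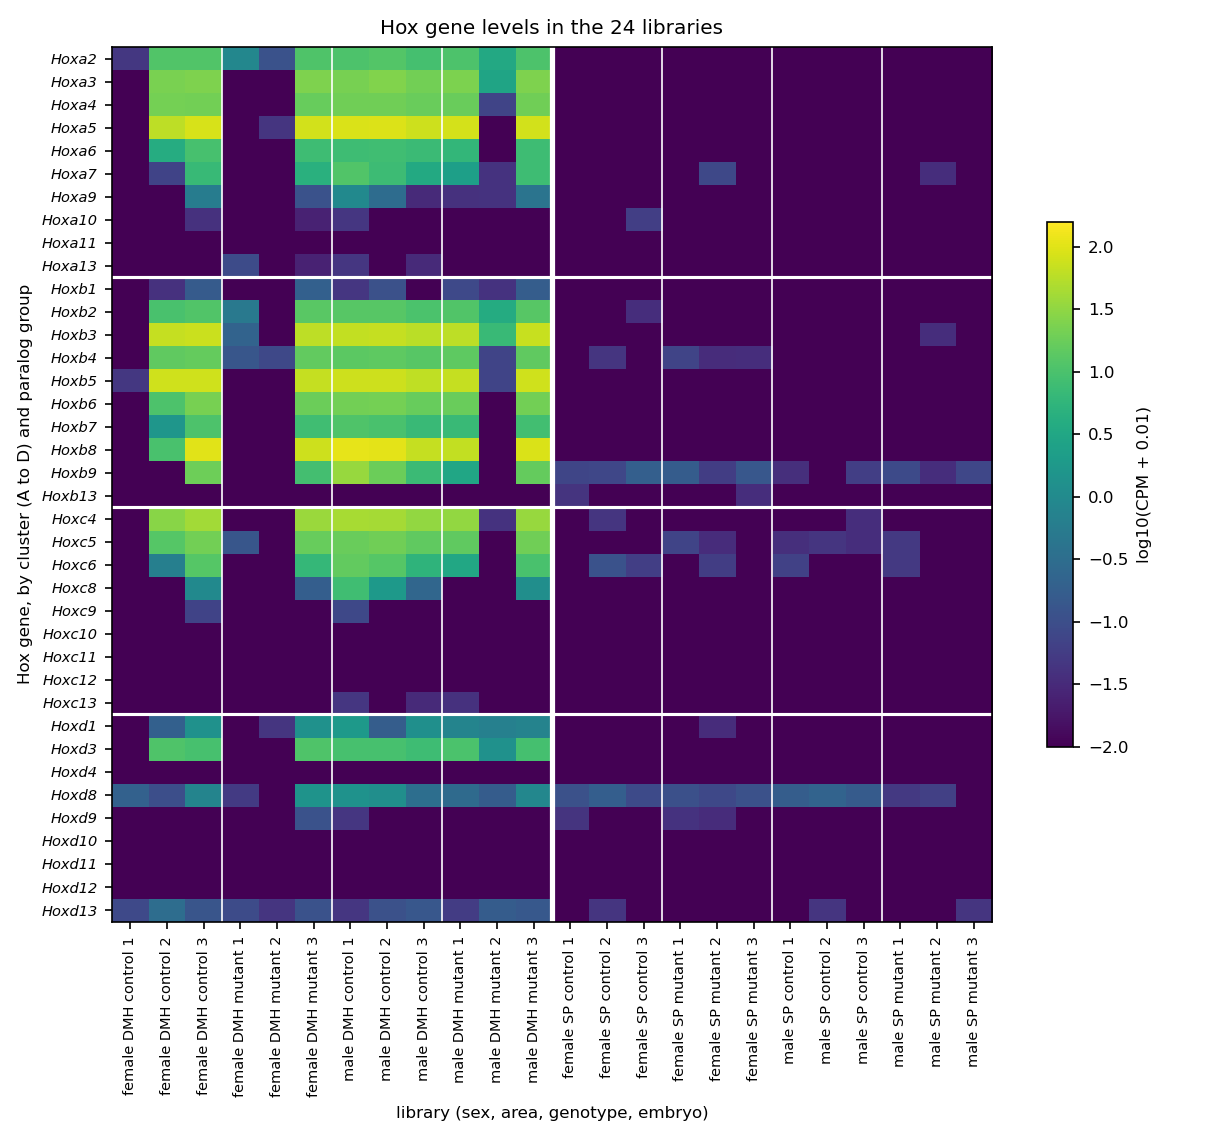
Level of the 38 *Hox* genes (rows, ordered by cluster and paralog group) in the 24 libraries (columns), coloured by log10 of CPM plus 0.01. White lines separate clusters, groups of 3 libraries and the DMH from the SP libraries; the DMH side is filled from group 2 down to group 9 in 7 libraries and to group 8 in female control 2, and female control 1, female mut1, female mut2 and male mut2 stand out as dark columns.

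Only part of the family was on in these pieces. Of the 38 members, 25 exceeded the floor in at least 1 DMH library and 21 reached 1 CPM in at least 1 of them, all of these 21 from paralog groups 1 to 9. Another 13 stayed at or under the floor in all 24 libraries, among them every listed member of groups 10, 11 and 12, and 8 had no count in any library. A count of 0 allows up to 3 counts, and at this depth such a gene could stand at up to 0.123 CPM in the shallowest library.

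Nearly all *Hox* RNA was in DMH. In the 12 SP libraries no member passed 0.210 CPM, and just 2 exceeded the floor there: *Hoxb9* in 3 libraries, with at most 7 counts, and *Hoxd8* in 5, with at most 6 counts. *Hoxb9* averaged 8.96 ± 11.6 CPM (SD, n = 11) in DMH and 0.0701 CPM in SP over the libraries fitted, a log2 fold change of 6.72 (SE 1.27, edgeR FDR 0.000123). *Hoxd8* averaged 0.479 ± 0.488 CPM against 0.103 CPM, a log2 fold change of 2.06 (SE 0.48, edgeR FDR 0.000619). Neither gene had enough counts in SP to pass the filter on low counts there. Both entered the fit through DMH, where they were high, so these values describe the difference only.

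In the comparison of DMH with SP 22 members had enough counts to be tested and the other 16 did not. All 22 passed the filter on low counts through DMH alone, *Hoxb9* and *Hoxd8* among them. In 20 of the 22 every SP library was at or under the floor, so these members had to be higher in DMH. All 22 were called higher in DMH, where 37.2% of 18317 genes were called, 21.9% higher and 15.3% lower, and nothing is read from that count. With no filter 27 of 30 members were called, all higher, where 29.6% of genes were called, and the 3 not called were *Hoxa10*, *Hoxb13* and *Hoxd9*, each at or near the floor in both areas. *Hoxa5* was at least 444-fold higher in DMH than the SP floor, *Hoxb8* at least 425-fold and *Hoxb5* at least 396-fold, down to at least 1.76-fold for *Hoxa9*.

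Within DMH, paralog groups differed in level, and each group was led by a particular cluster. Compared per kilobase of exon, which levels out the lengths of the genes, *Hoxa5* had the highest mean of all 38 at 29.5 CPM per kb over the 12 libraries, followed by *Hoxb8* at 20.005, *Hoxb5* at 17.5, *Hoxb3* at 10.4 and *Hoxc4* at 9.65 CPM per kb. The highest member of each group on this scale was *Hoxd1* (group 1), *Hoxa2* (group 2), *Hoxb3*, *Hoxc4*, *Hoxa5*, *Hoxb6*, *Hoxb7*, *Hoxb8* and *Hoxb9* (group 9). *Hoxb1*, *Hoxb2*, *Hoxc5*, *Hoxc6*, *Hoxa7*, *Hoxd8* and *Hoxc9* were the lowest of groups 1, 2 and 5 to 9, and *Hoxd3* and *Hoxd4* had the lowest values of groups 3 and 4, which cannot be read as levels. For group 8 the order rests on male control 1, where *Hoxc8* was at 2.92 CPM per kb, and by the median over the 12 libraries *Hoxc8* was lower than *Hoxd8*, at 0.0295 against 0.108 CPM per kb. In all 8 libraries that reached group 8 *Hoxa5* was the highest member per kilobase.

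Some neighbours in that order changed places between libraries. *Hoxb8* was below *Hoxb5* per kilobase in female control 2, at 3.79 against 27.8 CPM per kb, and above it in female control 3, at 39.1 against 28.6 CPM per kb. *Hoxa2* and *Hoxb2* traded places when length was ignored, at mean levels of 7.61 and 8.29 CPM. *Hoxd4* is a group 4 gene of the hindbrain, and it was listed at 0 in all 24 libraries. Its exons share 52.3% of their bases with other genes on the same strand, *Hoxd3* and *Gm28230*, and reads in shared exons are not assigned to either gene, so neither this 0 nor the level of *Hoxd3*, with 62.3% of its exon bases shared, can be read as a level of transcription.

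The cluster shares were steady among the 8 libraries that reached group 8. Hoxb genes took 52.7 to 57.8% of the summed member CPM there, Hoxa genes 27.0 to 32.7%, Hoxc genes 11.3 to 14.2% and Hoxd genes 1.85 to 3.16%, a share that leaves out the unassigned reads of exons common to *Hoxd3* and *Hoxd4*. Male mut2 departed from this with 11.7% from Hoxd and 0.157% from Hoxc, a cluster that begins at group 4.

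**Figure D2:**
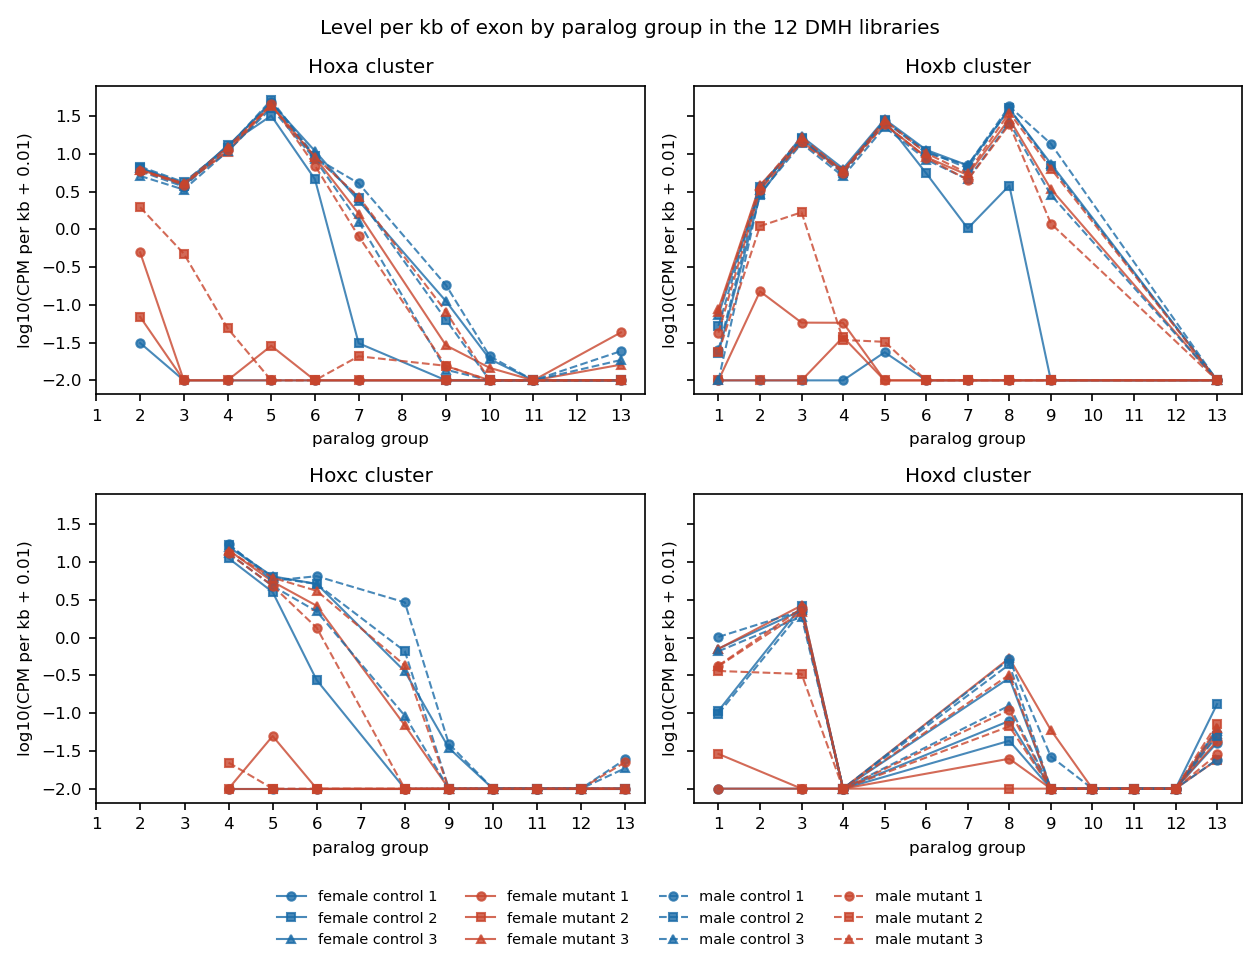
Level per kilobase of exon, as log10 of CPM per kb plus 0.01, against paralog group for each cluster (panels) in the 12 DMH libraries (lines; blue controls, red mutants; solid female, dashed male; circle, square and triangle for embryos 1, 2 and 3). The 8 libraries that reached group 8 run together from group 2 to 5 and fan out from group 6, female control 2 lowest, while male mut2 drops after group 3.

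The pieces differed in how far along the series they went. By the highest paralog group with a member at 1 CPM or more, 7 DMH libraries ended at group 9 with *Hoxb9*: female control 3, female mut3, the 3 male controls, male mut1 and male mut3. Female control 2 ended at group 8 with *Hoxb8*, and male mut2 ended at group 3 with *Hoxa3*, *Hoxb3* and *Hoxd3*. Female control 1, female mut1 and female mut2 had no member at 1 CPM. In male mut2 the Hoxa, Hoxb and Hoxd clusters all ended at group 3. In female control 2 the clusters ended apart on this threshold, with group 6 for Hoxa, 8 for Hoxb, 5 for Hoxc and 3 for Hoxd.

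In sum over the 38 members the female controls held 0.340, 364 and 583 CPM, the female mutants 2.01, 0.281 and 492 CPM, the male controls 609, 582 and 440 CPM and the male mutants 456, 19.8 and 544 CPM, in the order of embryos 1, 2 and 3. The number of members at 1 CPM or more was 0, 15 and 19 in the female controls, 0, 0 and 20 in the female mutants, 21, 20 and 19 in the male controls and 18, 5 and 19 in the male mutants. Low libraries were found in both genotypes of the females and among the male mutants, while each male control was high. Fewer caudal cells in a piece and less *Hox* RNA per cell cannot be told apart in bulk tissue.

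Groups 1 to 3 hold the genes with the most rostral limits. *Hoxa2*, the *Hox* gene that reaches furthest rostrally in the hindbrain, stood at 0.0378, 11.6 and 11.5 CPM in female controls 1, 2 and 3, at 0.860, 0.105 and 10.9 CPM in the female mutants, at 10.4, 12.02 and 9.02 CPM in the male controls and at 10.6, 3.46 and 10.7 CPM in the male mutants. It was the only member with a count in all 12 DMH libraries other than *Hoxd13*, whose highest count was 10. *Hoxb3*, a gene of the caudal hindbrain, stood at 0, 67.01 and 72.3 CPM in the female controls, 0.205, 0 and 61.2 CPM in the female mutants, 65.7, 67.9 and 58.2 CPM in the male controls and 60.1, 7.11 and 71.04 CPM in the male mutants. Male mut2 was low rather than empty for both genes, and among the 3 emptiest libraries female mut1 exceeded the floor for *Hoxa2*, *Hoxb2* and *Hoxb3*, which the other two did not.

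*Hoxb2*, which is active behind the second hindbrain segment, was at 0, 9.86 and 11.7 CPM in the female controls, 0.491, 0 and 13.5 CPM in the female mutants, 12.6, 12.7 and 10.3 CPM in the male controls and 11.6, 3.80 and 12.9 CPM in the male mutants. *Hoxd1*, a gene of group 1 known from sensory neurons rather than from hindbrain segments, went against the pattern of its neighbours. It was at 0, 0.181 and 1.31 CPM in the female controls, 0, 0.0351 and 1.30 CPM in the female mutants, 1.88, 0.165 and 1.21 CPM in the male controls and 0.777, 0.655 and 0.760 CPM in the male mutants. *Hoxd1* was thus low in male control 2, where all other listed genes of groups 2 to 7 but *Hoxd4* passed 1 CPM, and present in male mut2.

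From group 4 on male mut2 exceeded the floor for *Hoxd8* and *Hoxd13* alone, with 5 counts each. *Hoxc4*, the most 3′ gene of its cluster, stood at 0, 28.8 and 40.7 CPM in the female controls, 0, 0 and 37.00 CPM in the female mutants, 44.6, 43.3 and 33.6 CPM in the male controls and 33.5, 0.0312 and 35.8 CPM in the male mutants. *Hoxa4* in male mut2 was at 0.0623 CPM against 17.1 to 19.4 CPM in the other 5 male libraries. *Hoxb4*, whose hindbrain limit lies at the last segments before the spinal cord, was at the same 0.0623 CPM in male mut2 and at 12.8 to 15.2 CPM in the others.

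The group 5 genes, which pattern the caudal medulla and the cervical cord, carried the most RNA. *Hoxa5* stood at 0, 59.9 and 88.7 CPM in the female controls, 0, 0.0351 and 82.4 CPM in the female mutants, 92.2, 96.7 and 75.6 CPM in the male controls and 86.2, 0 and 81.8 CPM in the male mutants. For *Hoxb5* the values were 0.0378, 77.4 and 79.8 CPM in the female controls, 0, 0 and 68.5 CPM in the female mutants, 75.5, 76.1 and 62.98 CPM in the male controls and 68.5, 0.0623 and 77.3 CPM in the male mutants. Each was either at 59.9 CPM or more or under the floor, with no library in between, unlike *Hoxa2* and *Hoxb3*.

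From group 6 on the high libraries also differed from each other. *Hoxb8*, a gene of the spinal cord, stood at 0, 9.98 and 103 CPM in the female controls, 0, 0 and 76.7 CPM in the female mutants, 112, 105 and 68.3 CPM in the male controls and 64.7, 0 and 92.6 CPM in the male mutants. *Hoxb9*, the most caudal gene of its cluster to reach 1 CPM, was at 0, 0 and 19.02 CPM in the female controls, 0, 0 and 8.77 CPM in the female mutants, 34.99, 17.8 and 7.32 CPM in the male controls and 3.05, 0 and 16.3 CPM in the male mutants. *Hoxc8*, which acts in brachial motor neurons, was at 0, 0 and 0.984 CPM in the female controls, 0, 0 and 0.167 CPM in the female mutants, 8.28, 1.84 and 0.234 CPM in the male controls and 0, 0 and 1.19 CPM in the male mutants. Male control 1 was the highest library for all 3 genes.

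Several genes gave nearly the same order of libraries. *Hoxc6* fell from 15.6 CPM in male control 1 through 12.4 in female control 3, 12.3 in male control 2 and 10.01 in male mut3 to 6.33 in female mut3, 5.33 in male control 3, 3.23 in male mut1 and 0.635 CPM in female control 2. *Hoxa7* gave 11.7, 6.83, 7.54, 7.73, 4.61, 3.61, 2.30 and 0.0605 CPM in those same libraries. *Hoxb9* placed them at 34.99, 19.02, 17.8, 16.3, 8.77, 7.32, 3.05 and 0 CPM. The middle places (female control 3, male control 2 and male mut3) changed between genes, whereas male control 1 was first and male mut1 and female control 2 last for all 3.

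In female control 2 the levels fell within the series, further caudally than in male mut2. Groups 2 to 5 summed to 336 CPM there, within the 323 to 396 CPM of the other 7 libraries that reached group 8, but groups 6 to 9 summed to 27.2 CPM against 104 to 224 CPM. The ratio of the second sum to the first was 0.0808 in female control 2, 0.296 in male mut1, 0.359 to 0.584 in the male controls, 0.368 in female mut3, 0.439 in male mut3 and 0.471 in female control 3. In male mut2 it was 0.0116, at a sum of 18.7 CPM for groups 2 to 5.

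Replicates of 1 group showed the same fan. Among the 3 male controls, none of which lacked *Hox* RNA, the highest over the lowest CPM of a member was 1.12 to 1.33 for the 11 members of groups 2 to 5, with a median of 1.23. For the 9 members of groups 6 to 9 it was 1.10 to 35.4, with a median of 2.93. The ratio was 1.10 for *Hoxa6* and 1.29 for *Hoxb6*, 1.64 for *Hoxb8*, 2.93 for *Hoxc6*, 3.23 for *Hoxa7*, 4.35 for *Hoxd8*, 4.78 for *Hoxb9* and 35.4 for *Hoxc8*. No member of groups 2 to 5 exceeded 1.33, while *Hoxd1* of group 1 reached 11.4. These are 3 embryos of the same label, and no test was made of the trend along the groups.

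**Figure D3:**
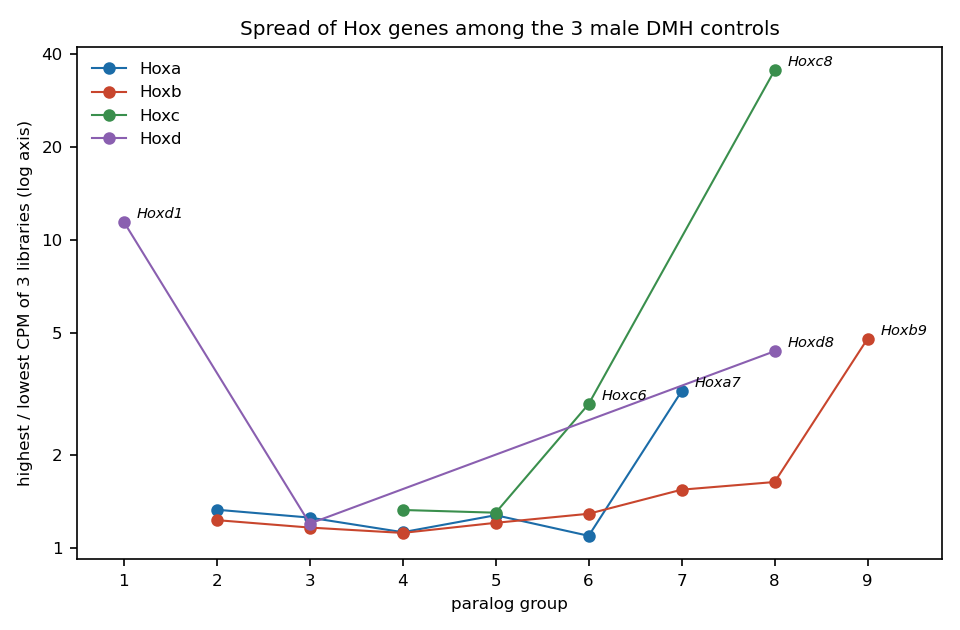
Highest over lowest CPM among the 3 male DMH controls (log axis) for each member against its paralog group, coloured by cluster. Points for groups 2 to 5 lie between 1.12 and 1.33, whereas *Hoxc6*, *Hoxa7*, *Hoxd8*, *Hoxb9* and *Hoxc8* lie between 2.93 and 35.4.

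The most caudal genes left only traces. *Hoxa9*, of the same group as *Hoxb9*, peaked at 0.959 CPM in male control 1 and exceeded the floor in 5 libraries. *Hoxd8* reached 1.39, 1.19 and 0.318 CPM in the male controls and 0.0409, 0 and 1.44 CPM in the female mutants. *Hoxd9* exceeded the floor in female mut3 alone, with 7 counts, and *Hoxc9* in no library. *Hoxd13*, a gene of digits and genitalia, had 1 to 10 counts in every DMH library, whatever the level of the other members.

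Markers of other regions moved with the *Hox* sum. Genes of caudal hindbrain and spinal neurons (*Lbx1*, *Tlx3*, *Slc6a5*, *Tbx20*, *Mnx1* and *Slc18a3*) summed to 4.16, 45.5 and 62.7 CPM in the female controls, 8.64, 3.19 and 55.4 CPM in the female mutants, 71.6, 64.3 and 49.95 CPM in the male controls and 53.8, 21.9 and 58.00 CPM in the male mutants. The 4 lowest sums belonged to the 4 libraries with the lowest *Hox* sums, female control 1, female mut1, female mut2 and male mut2. Midbrain genes (*Otx2*, *Dmbx1*, *Tal2*, *Pax7* and *Sox14*) were highest in those 4 libraries, with 395, 284 and 227 CPM in the female controls, 388, 414 and 210 CPM in the female mutants, 187, 206 and 166 CPM in the male controls and 247, 350 and 245 CPM in the male mutants. Among the male libraries high in *Hox* RNA the midbrain sums went with genotype, at 247 and 245 CPM in mut1 and mut3 against 166 to 206 CPM in the controls. Among the female libraries high in *Hox* RNA the order was the opposite, with mut3 at 210 CPM and controls 2 and 3 at 284 and 227 CPM. *Dmbx1* was called, higher in the mutants, in male DMH (log2 fold change 0.80, SE 0.10, edgeR FDR 0.0807) and in both sexes together (0.81, SE 0.08, edgeR FDR 0.00217). Of all genes 0.0236% and 0.0513% were called in these fits. In each of them 4 of the 5 genes had an unadjusted p under 0.05, as did 490 of 16962 genes in males and 2613 of 17555 in both sexes. The likelihood ratio test also called *Otx2* in both fits and *Dmbx1* in females, and DESeq2 called the same and *Tal2* in males. Of the caudal hindbrain list the likelihood ratio test called *Tlx3* and *Slc18a3* in females, with 0.96% of all genes called. The quasi-likelihood test and DESeq2 called 0 of that list in females. Sums for the isthmus and rostral hindbrain (*En1*, *En2*, *Fgf8*, *Fgf17*, *Gbx2* and *Pax5*) were 209 to 255 CPM in those 4 libraries and 139 to 206 CPM in the other 8.

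**Figure D4:**
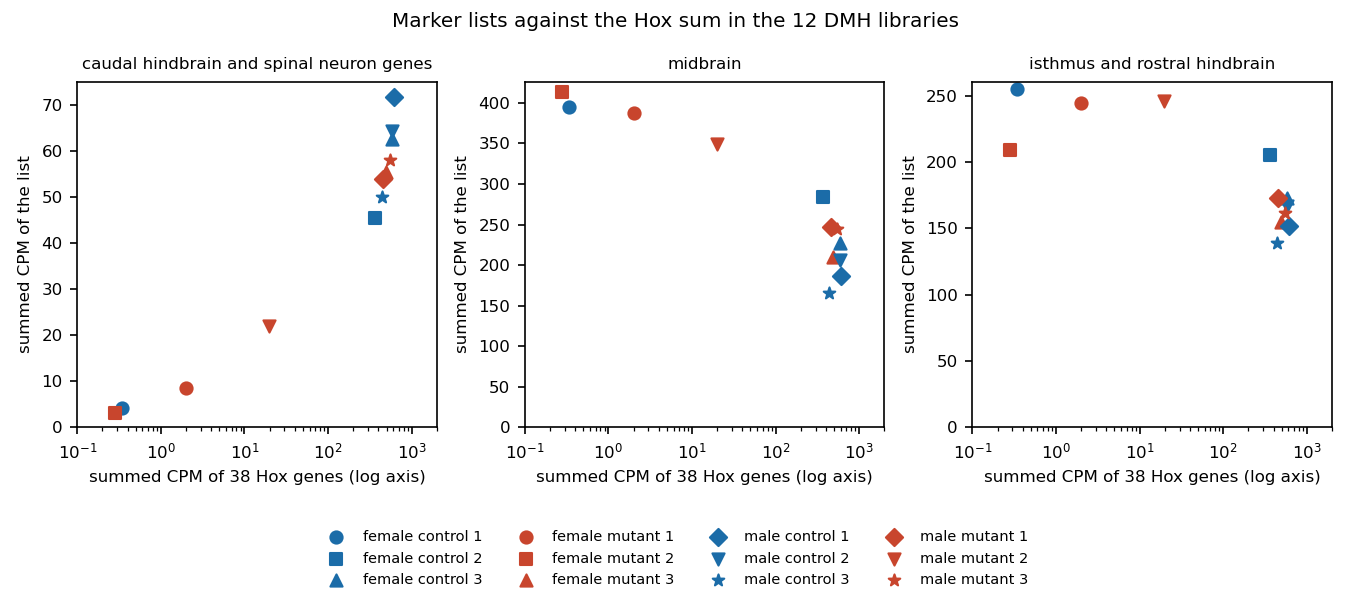
Summed CPM of 3 marker lists (y axes) against the summed CPM of the 38 *Hox* genes (x axes, log scale) in the 12 DMH libraries, 1 point each (blue controls, red mutants, markers by embryo). Female control 1, female mut1, female mut2 and male mut2 lie at the left, with 3.19 to 21.9 CPM of caudal hindbrain genes against 45.5 to 71.6 CPM in the others, 350 to 414 CPM of midbrain genes against 166 to 284 CPM, and 209 to 255 CPM of isthmus and rostral hindbrain genes against 139 to 206 CPM.

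The HOX proteins bind DNA together with TALE homeodomain partners of the PBX, MEIS and PKNOX families. Of 9 such cofactors 4 were called between DMH and SP, where 37.2% of all genes were: *Meis1* (log2 fold change 1.39, SE 0.15), *Pbx3* (1.05, SE 0.05) and *Pknox2* (0.59, SE 0.04) were higher in DMH, and *Meis2* was lower (-0.76, SE 0.08). *Meis1* differed most between DMH pieces, at 38.9, 93.4 and 101 CPM in the female controls, 52.4, 40.8 and 97.01 CPM in the female mutants, 91.3, 98.3 and 85.9 CPM in the male controls and 87.8, 65.2 and 91.4 CPM in the male mutants. The same 4 libraries that were low in *Hox* RNA were the lowest for *Meis1*, although each held at least 38.9 CPM of it.

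Upstream regulators set the limits of the *Hox* genes, through segment factors such as *Egr2* (Krox20) and through retinoic acid. Of 13 listed, 7 could be tested between DMH and SP and 4 were called, against the same 37.2% of all genes. *Egr2* (2.79, SE 0.36), *Cyp26b1* (3.25, SE 0.10), which breaks down retinoic acid, and *Aldh1a2* (1.26, SE 0.22), which makes it, were higher in DMH on the log2 scale, and *Rarb*, a retinoic acid receptor, was lower (-0.56, SE 0.12). *Cdx2* and *Cdx4*, regulators of the posterior genes, had no count in any DMH library. *Egr2* stood at 0.189, 1.36 and 1.19 CPM in the female controls, 0.246, 0.211 and 1.43 CPM in the female mutants, 0.959, 1.81 and 1.36 CPM in the male controls and 1.36, 0.405 and 1.42 CPM in the male mutants, lowest in the same 4 libraries.

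Polycomb and Trithorax complexes hold *Hox* genes in the off and the on state. Of 19 listed genes 5 were called between DMH and SP, all lower in DMH, where 37.2% of all genes were called and 15.3% were lower: *Ezh2* (log2 fold change -1.17, SE 0.07), *Cbx2* (-0.86, SE 0.08), *Suz12* (-0.85, SE 0.04), *Eed* (-0.70, SE 0.05) and *Phc2* (-0.61, SE 0.08). Between genotypes, 0 genes of the cofactor, upstream and Polycomb lists were called in DMH by either edgeR test in females, males or both sexes together. At an unadjusted p under 0.05 the quasi-likelihood test gave 1, 1 and 3 genes of the 3 lists in females, 0, 1 and 0 in males and 3, 2 and 4 in both, where 1492 of 16773, 490 of 16962 and 2613 of 17555 genes passed. DESeq2 called 1 gene, *Rarb*, in both sexes together, with 0.291% of all genes called, where edgeR gave a log2 fold change of -0.55 (SE 0.18, FDR 0.331).

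Antisense transcripts of the clusters were measured as well. Of 38 non-coding genes annotated within the spans of the 4 clusters 11 exceeded the floor in at least 1 library. *Hoxaas2*, antisense beside *Hoxa2*, exceeded it in 9 DMH libraries, with 1.18 CPM in male mut2 and 1.63 to 2.88 CPM in the 8 libraries that reached group 8. *Hoxb3os*, antisense to *Hoxb3*, stood at 0.842 CPM in male mut2 and at 1.91 to 2.66 CPM in those 8. *Hoxaas3* and *Hoxb5os*, from further 5′, were at 0.0312 and 0 CPM in male mut2. *Hoxb3os* shares 2250 bases of exon with *Hoxb3* on the opposite strand, and the counts used here were of the sense strand only. The long non-coding RNAs *Hotair* and *Hoxa11os* had no count in any library.

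Outside the clusters the closest likeness to the *Hox* sum was sought among 13378 non-*Hox* genes, by Pearson's r over the 12 DMH libraries on the log2 scale. *Pax2* was first at 0.997, a gene of hindbrain and spinal interneurons that also marks the isthmus, followed by *Meis1* at 0.990, *Lbx1* at 0.990, *Lamp5* at 0.990, *Lhx3* at 0.990, *Slc6a5* at 0.989, *Slc18a3* at 0.982, *Penk* at 0.980, *Pax8* at 0.980 and *Adamts16* at 0.978. *Pax2* stood at 4.65, 41.7 and 45.1 CPM in the female controls, 7.82, 4.04 and 40.1 CPM in the female mutants, 46.9, 47.5 and 35.7 CPM in the male controls and 39.4, 13.9 and 45.3 CPM in the male mutants. *Lbx1*, *Slc6a5* and *Slc18a3* belong to the caudal hindbrain list above and *Meis1* to the cofactors, and the points share library and dissection, so these values describe the pieces and were not tested.

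The study set out to find genes controlled by *Tfap2b* and to test whether GABAergic neurons need it for sleep. For the *Hox* genes the first of these aims was put to female and male DMH separately. Of the libraries fitted in female DMH the 2 mutants were both without *Hox* RNA beyond traces, as was 1 of the 3 controls. *Hoxb5* averaged 52.4 ± 45.4 CPM (SD, n = 3) in the controls, with both mutants at 0 CPM, *Hoxa5* averaged 49.5 ± 45.2 CPM against 0.0175 CPM and *Hoxb8* 37.7 ± 56.9 CPM against 0 CPM. Female mut3, not fitted, held 68.5 CPM of *Hoxb5*, 82.4 CPM of *Hoxa5* and 76.7 CPM of *Hoxb8*. For these genes the controls ran from 0.0378 to 79.8, from 0 to 88.7 and from 0 to 103 CPM, too wide a range for a comparison. Female mut3 also held the muscle and cartilage RNA given above, and whether that tissue added to its *Hox* RNA was not tested.

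None of the 16 members tested was called in female DMH by the edgeR quasi-likelihood test, in a comparison that called 0.00596% of 16773 genes. At an unadjusted p under 0.05 the count was 0 of 16 members and 1492 genes. The edgeR FDR ran from 0.570 to 0.659. The log2 fold change of *Hoxa2* was -4.05 (SE 2.33, edgeR FDR 0.603), that of *Hoxb2* -4.94 (SE 2.69, edgeR FDR 0.594) and that of *Hoxb3* -8.87 (SE 3.95, edgeR FDR 0.571). In the other 13 neither mutant exceeded the floor, so they were tested through the controls alone and had to be lower in the mutants. Their control mean was at least 33.6-fold (*Hoxb7*) to at least 427-fold (*Hoxb5*) the floor.

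The count in females changed with the test, the filter and the libraries fitted. The likelihood ratio test of edgeR called 14 of the 16 members, with 0.96% of all genes called, and DESeq2 called 1 (*Hoxb5*), with 0.453% of all genes. With no filter on low counts 2 of 27 were called (*Hoxa9* and *Hoxd8*), with 1.81% of all genes. Without female control 1 the quasi-likelihood test called 13 of 16, with 6.63% of all genes called. Leaving out female control 2, the embryo with Y-linked transcripts, or female control 3 left 2 members to test and 0 called. With female mut3 fitted as well, 0 of 16 were called, at log2 fold changes of -1.22 to -0.55. Female control 1 exceeded the floor for *Hoxd8* alone, with 5 counts.

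The study lists 15 *Hox* genes for female DMH, chosen on these same libraries and therefore no independent evidence of a direction. All 15 are members, 0 of them were called in female DMH by the quasi-likelihood test, 14 by the likelihood ratio test and 1 (*Hoxb5*) by DESeq2, and their median log2 fold change was -0.61 in males. In those 15, female control 1 held 0.0378 CPM in sum, against 352 and 541 CPM in controls 2 and 3.

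**Figure D5:**
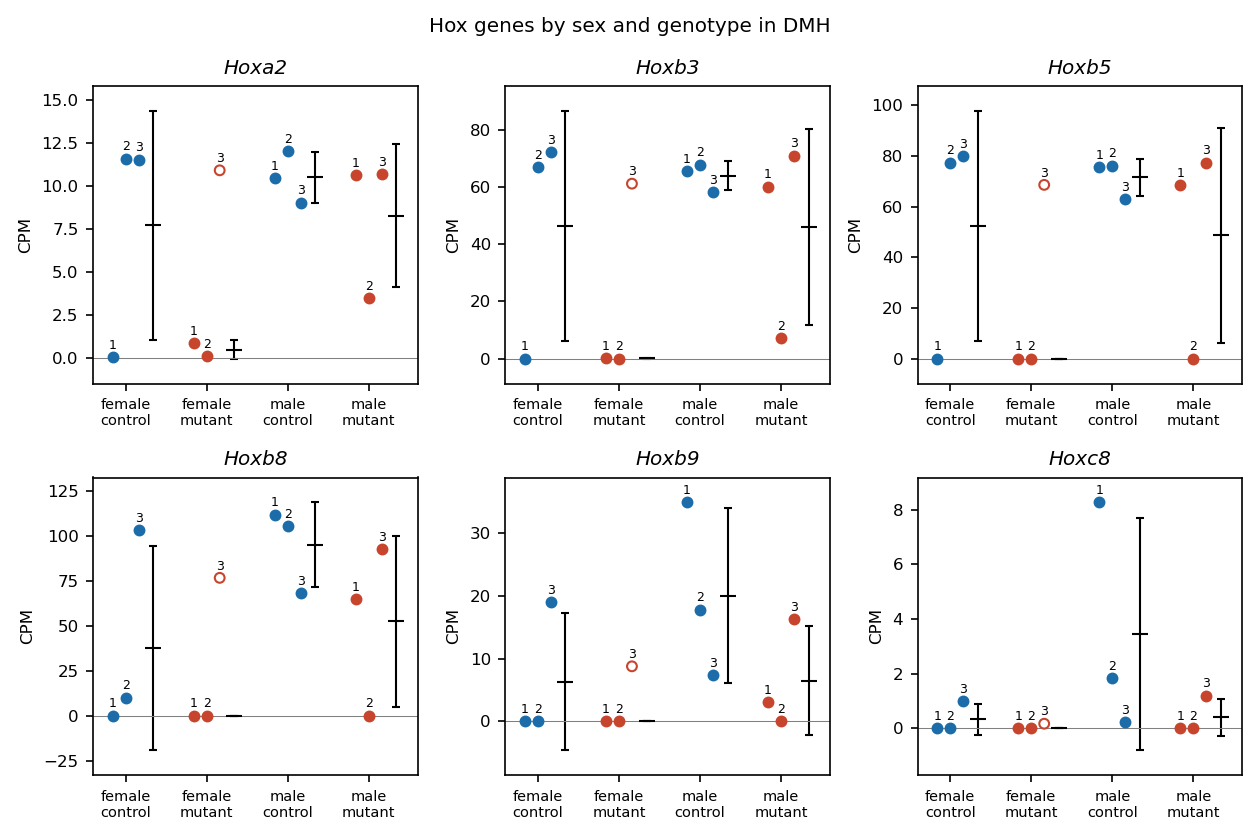
CPM of 6 *Hox* genes in DMH by sex and genotype (blue controls, red mutants, 1 point per embryo with its number; open circle, female mut3, not fitted). Black bars give mean and SD without female mut3; for each gene the group means differ, but female control 1 sits with the female mutants and male mut1 and mut3 sit beside the male controls for *Hoxa2*, *Hoxb3* and *Hoxb5*.

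In male DMH 0 of 21 members were called, where 0.0236% of 16962 genes were (0.0059% higher and 0.0177% lower), and 0 members and 490 genes had an unadjusted p under 0.05. DESeq2 and the likelihood ratio test also called 0 members. All 21 were lower in the mutants, with a median log2 fold change of -0.63 against 0.00 over all genes and edgeR FDR of 0.870 to 0.939. *Hoxa5* averaged 88.2 ± 11.1 CPM in the controls and 56.0 ± 48.6 CPM in the mutants (SD, n = 3 each), lower by a log2 fold change of -0.67 (SE 1.42), and *Hoxb5* 71.5 ± 7.40 against 48.6 ± 42.3 CPM (-0.57, SE 1.38). *Hoxb8* gave -0.88 (SE 1.42), *Hoxb9* -1.68 (SE 1.45) and *Hoxc8* -3.42 (SE 1.97). The value of *Hoxc8* was -1.59 without male control 1 and -10.10 without male mut3.

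For 7 members the direction in males rested on male mut2. Without it 7 members were higher and 15 lower of 22 tested, with a median log2 fold change of -0.13 and 0 called. *Hoxa2* then stood at 0.0063 (SE 0.12) and *Hoxb5* at 0.0079 (SE 0.09) on the log2 scale. The 10 members of groups 6 to 9 tested without it were all below 0, with *Hoxb9* at -1.12 (SE 1.20), *Hoxc8* at -2.94 (SE 2.39) and *Hoxc6* at -0.80 (SE 0.82).

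With both sexes fitted together (6 controls and 5 mutants, sex as covariate) 0 of 22 members were called, where 0.0513% of 17555 genes were (0.0057% higher and 0.0456% lower). At an unadjusted p under 0.05 there were 0 members and 2613 genes, and DESeq2 and the likelihood ratio test called 0 members as well. All 22 were lower, with a median log2 fold change of -1.79, which became -0.73 when female mut3 was fitted, and -2.87 by the likelihood ratio test and -2.89 by DESeq2 on the same libraries. *Hoxc8* (-3.50, SE 1.55) and *Hoxd8* (-1.55, SE 0.71) came closest, both at an edgeR FDR of 0.335. *Hoxd8* was at -0.27 with female mut3 fitted, and *Hoxc8* at -1.98 without male control 1 and -9.35 without male mut3. Without female control 2 the median was -1.76 and 0 were called.

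The effect of genotype was also compared between the sexes by an interaction term, with female control 2, the embryo with Y-linked transcripts, kept among the females. No member of 22 was called by the quasi-likelihood test, where 0% of 17555 genes were, and 1 member (*Hoxb3*) and 351 genes had an unadjusted p under 0.05. Without female control 2 the same test gave 0 members at an unadjusted p under 0.05, and all 22 terms were above 0. The likelihood ratio test called 3 (*Hoxa3*, *Hoxb5* and *Hoxd3*), with 0.137% of all genes called, and DESeq2 called 2 (*Hoxb8* and *Hoxb9*), with 0.0741%. With female mut3 fitted, 13 interaction terms were above 0 and 9 below, against 22 and 0 without it.

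*Tfap2b* itself was called in DMH of both sexes, with log2 fold changes of -2.76 (SE 0.17, edgeR FDR 0.00946) in females and -2.92 (SE 0.11, edgeR FDR 2.45e-05) in males. Its level was 50.4 to 56.6 CPM in the DMH mutants, whose *Hox* sums ran from 0.281 to 544 CPM. In female control 1, with 0.340 CPM of *Hox* RNA, it was 384 CPM. A link between *Tfap2b* level and *Hox* RNA was not tested. In SP no member had enough counts to be tested for genotype, where 0.0181% of genes were called in females (0.00602% higher and 0.012% lower) and 0% in males. With no filter on low counts 13 members in females and 8 in males were tested and 0 called.

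Because AP-2 proteins bind a GC-rich palindrome, the promoters of the members were searched for its consensus GCCNNNGGC on both strands. A RefSeq start was given for 22 of the 38 members, with 24 promoters, each covering the 250 bases before the start on GRCm38.p6. The consensus was found in 5 members (*Hoxa5*, *Hoxa13*, *Hoxb1*, *Hoxd9* and *Hoxd13*), in 20.8% of member promoters against 13.7% of 32851 promoters of all genes. The sequence TGATNNAT, to which HOX and PBX proteins bind together, was found in *Hoxa2*, *Hoxb1*, *Hoxb8* and *Hoxd11*, in 16.7% against 7.68%. A match describes these letters only. 3 promoters are printed, of the most rostral gene, of the most abundant one, which holds a match, and of the most abundant gene of the caudal groups, with the AP-2 consensus in capitals where it occurs (*Hoxa2* at chr6:52164832-52165081, minus strand; *Hoxa5* at chr6:52204588-52204837, minus strand; *Hoxb8* at chr11:96281655-96281904, plus strand).
*Hoxa2*: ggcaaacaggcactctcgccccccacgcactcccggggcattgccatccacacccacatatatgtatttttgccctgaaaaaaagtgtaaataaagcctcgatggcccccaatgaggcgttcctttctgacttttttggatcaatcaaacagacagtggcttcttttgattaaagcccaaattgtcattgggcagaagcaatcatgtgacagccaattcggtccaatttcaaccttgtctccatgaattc
*Hoxa5*: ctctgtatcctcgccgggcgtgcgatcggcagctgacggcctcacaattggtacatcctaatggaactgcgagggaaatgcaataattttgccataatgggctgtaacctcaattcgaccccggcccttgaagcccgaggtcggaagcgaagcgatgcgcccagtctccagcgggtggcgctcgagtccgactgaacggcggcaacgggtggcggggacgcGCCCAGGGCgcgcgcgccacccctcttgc
*Hoxb8*: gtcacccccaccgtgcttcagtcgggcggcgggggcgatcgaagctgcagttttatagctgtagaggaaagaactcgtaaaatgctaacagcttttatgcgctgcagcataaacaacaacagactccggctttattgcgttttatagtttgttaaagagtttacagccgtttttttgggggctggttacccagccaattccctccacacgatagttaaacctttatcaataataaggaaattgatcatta
The *Hoxa5* match begins 29 bases before the start site. GC contents of the 3 windows were 46.4% for *Hoxa2*, 63.6% for *Hoxa5* and 44.4% for *Hoxb8*.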

How the data were processed

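The authors trimmed reads with cutadapt 2.4, aligned them to mm10 (GRCm38.p6) with STAR 2.6.1d and deposited 1 table of raw counts per gene and library, per the labels and files. Libraries were made from polyA RNA with a dUTP strand protocol, and the count column for that strand was used. The annotation release is not given in the sources used here. Coordinates and exon lengths are those of GENCODE vM21 on GRCm38, and gene symbols matched on Ensembl identifiers. Promoters are from RefSeq (GRCm38.p6).

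Each comparison had its own fit over all genes, by the robust quasi-likelihood test of edgeR 4.0.16 under R 4.3.3, with TMM factors, the filterByExpr minimum and Benjamini-Hochberg FDR. Standard errors are the absolute log2 fold change over the square root of F. Library 3 of the female mutants was left out of both areas, as in the study. Alternatives were other size factors, filters, strands, tests (DESeq2 1.42.0, likelihood ratio test), blocks and thresholds, and each library left out. Members, lists and tests were chosen with earlier results of these data known. Some marker genes are not reported here, and the list sums leave them out. Plots used matplotlib 3.10.9 under Python 3.11.15. No pair of libraries of a group was a copy. Fits recovered the known changes of simulated data, in which every gene had the same low spread within a group. The members spread far more, as in the female controls, so the simulation does not speak for their fits.

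SP and DMH pieces of an embryo were paired by the animal. Their deviations from the group means correlated at 0.044 to 0.32, and with embryo as a block the comparison of the 2 areas again called 22 members. Named genes are all 38 members, the highest and lowest per kilobase of each paralog group, list genes past the thresholds, non-coding genes inside the clusters, *Tfap2b*, and the 10 non-*Hox* genes with the highest Pearson correlation of log2(CPM + 0.1) with the summed member CPM, at a mean of at least 1 CPM in DMH. 10 counts or fewer give little precision, and intervals were not computed for single counts.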

Additional observations from a re-analysis of the deposited data

How the results depend on the processing

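Of 122 alternative fits of the counts of called members 115 left the count within 1.5 times its main value. The 7 others all raised a count from 0. In female DMH no filter on low counts called 2, the likelihood ratio test 14, DESeq2 1 and the replicate number as a block 11 (0.209% of all genes), and leaving out 1 library gave 0 to 13, the 13 without control 1. For the interaction of genotype and sex the likelihood ratio test called 3 and DESeq2 2. DMH against SP gave 22 in every fit that left out an embryo and with embryo as a block, 27 of 30 tested with no filter and 18 of 18 at a mean of at least 1 CPM. In male DMH, in both sexes together and in SP every alternative called 0. Among the 15 log2 fold changes followed singly through every alternative 2 turned in direction, those of *Hoxa2* and *Hoxb5* in male DMH, which ran from -0.58 to 0.0063 and from -1.06 to 0.0079 with 1 library left out, the positive values without mutant 2. The other 254 alternatives for these kept their direction. Over all members, 7 in male DMH were above 0 without mutant 2, and with no filter 1 DMH member was above 0 among females, 2 among males and 2 with the sexes together. Interaction terms below 0 numbered 9 with female mutant 3 fitted, 3 without female control 3, 1 without male mutant 3 and 3 of 29 with no filter.

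Replicate numbers of controls and mutants share no litter or day in the labels. The correlations of their deviations were 0.311, -0.114 and 0.494 in female DMH and 0.186, 0.0633 and -0.106 in male DMH. They cannot exclude a pairing by number, since 0.311 and 0.494 stand beside 0.044 to 0.32 for the SP and DMH pieces of an embryo. The 11 calls with the block in females are given as values only. The block called 0 in the other genotype comparisons.

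Limits are the 3 embryos per group, 2 among the female mutants fitted, and caudal hindbrain markers that differed within groups and cannot be told apart from genotype in females. Litter and dissection day were not analysed here. P-values measure the spread between these embryos. Members at or under 3 counts have no measurable fold.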

Other observations

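*Gm11539*, a processed pseudogene annotated inside the Hoxb span at chr11:96248633-96249189 on the plus strand, between *Hoxb13* and *Hoxb9*, did not share the pattern of its neighbours. It exceeded the floor in all 24 libraries, with 0.191 to 0.579 CPM in DMH and 0.469 to 1.35 CPM in SP. In female control 1 and female mut2, which lacked *Hox* RNA beyond traces, it stood at 0.567 and 0.421 CPM. A processed pseudogene can share reads with the gene it was copied from, so its level is uncertain.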
